A study of Homo sapiens with 4 samples.

Results

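The genes described are 8 members of the SLC9 family of sodium/proton exchangers, *SLC9A2*, *SLC9A3*, *SLC9A5*, *SLC9A7*, *SLC9A8*, *SLC9A9*, *SLC9B1* and *SLC9B2*, found by an exact match of their symbols among the 28278 genes of the deposited count table. RNA-seq was performed in 4 libraries of a human hepatocellular carcinoma cell line labelled HepG2, all treated with Sorafenib, a kinase inhibitor, for 24 h. In 2 libraries the cells carried Cas9 with a control sgRNA from a lentivirus (control), and in 2 they carried Cas9 with 1 sgRNA against *USP22* (sgUSP22), a histone deubiquitinase gene. Per the study's methods the lines were stable populations selected with puromycin, and whether they were clones is not given in the sources used here. Both groups were treated with Sorafenib, so the comparison is between sgUSP22 and control cells under the drug. Nothing in the labels ties the 2 libraries of a group to separate cultures, and the p-values then measure only the spread between these libraries.

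SLC9 exchangers move protons across a membrane against sodium or potassium ions, and so set the pH of the cytosol or of the inside of an organelle. The plasma membrane exchangers use the inward sodium gradient to push protons out of the cell. The organellar exchangers let protons leak out of the Golgi apparatus and endosomes, and so oppose the V-type proton ATPase, which acidifies these compartments. Among the members, *SLC9A2*, *SLC9A3* and *SLC9A5* encode exchangers known mainly from the plasma membrane, *SLC9A7*, *SLC9A8* and *SLC9A9* encode organellar ones, and *SLC9B1* and *SLC9B2* belong to a more distant branch, which was kept apart.

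The libraries held between 62030307 and 64728272 counts. The spread between replicates was above the sampling noise of counts taken as separate reads (chi-square averaged over genes, 7.86 in control and 8.25 in sgUSP22 cells). StringTie derives counts from read coverage, and how much of this spread exceeds the sampling noise of reads was not tested. *USP22* itself was counted 16450 and 16537 times in control and 20279 and 20368 times in sgUSP22 libraries, a log2 fold change of 0.22 (SE 0.034, edgeR adjusted p = 0.000394). Its transcript was therefore not lower under the knockout label, and every direction below follows that label. The protein, which the study examined by Western blot, is not analysed here. Of 24 hepatocyte markers, 14 were listed at 0 in all 4 libraries, *ALB*, *APOA1*, *APOB* and *TTR* among them, *AFP* and *HNF4A* had at most 9 counts in any library, and 2 were abundant enough to be tested. Of these, *ASGR1* was called lower, with 197 and 188 counts in control and 125 and 106 counts in sgUSP22 libraries (log2 fold change -0.82, edgeR adjusted p = 0.00649). The other, *CPS1*, was not called but was higher by adjusted p (log2 fold change 0.40, edgeR adjusted p = 5.16e-06). It carried nearly all of the list's summed level in CPM (counts scaled to library size). That level ranged from 979 to 1020 CPM in control and from 1302 to 1331 CPM in sgUSP22 libraries. Markers of other cells were also looked up. Of 12 fibroblast and mesenchymal markers 10 were tested, with 3 called higher and 2 lower. Over all tested genes 8.88% were called higher and 7.25% lower. Summed levels of these markers were 2026 to 2041 CPM in control and 2355 to 2373 CPM in sgUSP22 libraries. The sums hide large changes in opposite directions. Those called higher were *DCN* (log2 fold change 2.995), *LUM* (1.504) and *FN1* (1.128). Those called lower were *FAP* (log2 fold change -2.494) and *PDGFRB* (-0.9768). Of the other lists, 5 of 8 blood cell markers and 3 of 8 neural markers were listed at 0 in all libraries. The summed level of the blood cell markers was 73.8 to 74.04 CPM in control and 44.1 to 47.0 CPM in sgUSP22 libraries, nearly all from *CD68*, which was called lower (log2 fold change -0.70, edgeR adjusted p = 2.78e-06). That of the neural markers was 19.1 to 19.2 CPM in control and 15.6 to 18.8 CPM in sgUSP22 libraries, and none was called. The labelled cell type was thus not borne out by its defining markers, and the part of these differences in the results was not tested.

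Genes were called where edgeR's quasi-likelihood test gave an adjusted p below 0.05 and the change was at least 1.5-fold. By this rule 2 of the 8 members were called higher in sgUSP22 cells, *SLC9A2* of the plasma membrane group and *SLC9A9* of the organellar group. No member was called lower. Among the members at the plasma membrane, *SLC9A3*, the more abundant one, passed the adjusted p in the opposite direction with a smaller change. Of the 8 members, 7 had enough counts to be tested. Over all 15150 tested genes the same rule called 8.88% higher and 7.25% lower, and without the fold change threshold 26.8% were higher and 25.8% lower, against 3 members higher and 1 lower. The groups did not overlap in 6 of the 7 tested members and in 75.9% of all tested genes. The median log2 fold change was 0.07 over the 7 members and 0.0009 over all tested genes, and with so few members nothing is read from these shares about the family.

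**Figure D1:**
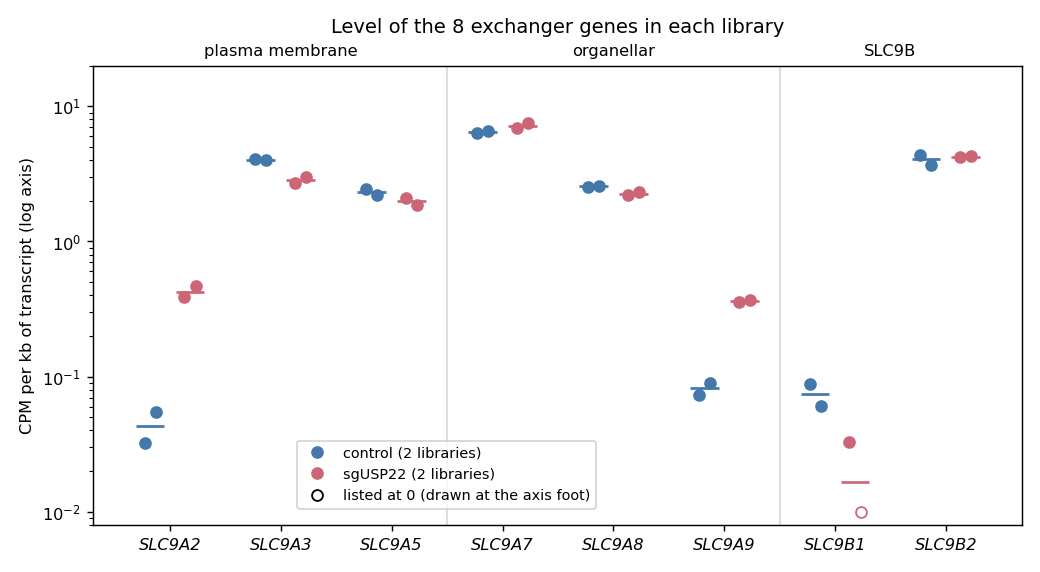
Level of each exchanger gene in each of the 4 libraries, in CPM per kb of transcript on a log axis, with horizontal bars for the means of 2 libraries and an open circle for a library listed at 0. *SLC9A7* was the highest in both groups, and *SLC9A2* and *SLC9A9* lay between 0.0322 and 0.0899 in control and between 0.359 and 0.465 in sgUSP22 libraries.

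Levels were compared between genes per length, as CPM per kb of the canonical annotated transcript. In control cells *SLC9A7* had the highest level, with 6.42 ± 0.149 (SD, n = 2) CPM per kb, followed by *SLC9B2* with 4.05 ± 0.488 (SD, n = 2) and *SLC9A3* with 4.04 ± 0.0901 (SD, n = 2). The ranges of *SLC9B2* and *SLC9A3* overlapped in control cells, so these neighbours in the order did not differ beyond their spread. *SLC9A8* followed with 2.55 ± 0.0538 (SD, n = 2) CPM per kb and *SLC9A5* with 2.32 ± 0.17 (SD, n = 2). The other members, *SLC9A9*, *SLC9B1* and *SLC9A2*, lay under 0.09 CPM per kb in each control library, and the ranges of *SLC9A9* and *SLC9B1* overlapped. In sgUSP22 cells the upper part of the order was the same, from *SLC9A7* with 7.21 ± 0.387 (SD, n = 2) CPM per kb down to *SLC9A5* with 1.99 ± 0.168 (SD, n = 2), with no overlap between neighbours. *SLC9A2* with 0.425 ± 0.0557 (SD, n = 2) and *SLC9A9* with 0.364 ± 0.00762 (SD, n = 2) CPM per kb came next there, and *SLC9B1* was last. The members called higher were thus rare transcripts in both groups. In a bulk sample, fewer cells with a transcript and less of it per cell cannot be told apart.

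*SLC9A2*, which encodes NHE2, an exchanger of the apical membrane of epithelia, lies on the plus strand of chromosome 2 of hg38 from 102619553 to 102711355, with 12 exons. It was counted 11 and 19 times in control and 142 and 168 times in sgUSP22 libraries. Both sgUSP22 values were far above both control values, and their counting intervals did not meet, the upper 95% Poisson bound being 29.7 counts for the higher control library and the lower bound 119.6 counts for the lower sgUSP22 library. Such intervals cover counting error only and treat each count as a separate read. StringTie derives counts from read coverage, so they are approximate and may be too narrow. As CPM, *SLC9A2* was 0.242 ± 0.0878 (SD, n = 2) in control and rose to 2.38 ± 0.312 (SD, n = 2). Its log2 fold change was 3.28 (SE 0.34, 95% interval 2.52 to 4.05, edgeR adjusted p = 3.11e-05), a 9.74-fold rise. The size rests on few control counts, and with 1 library left out at a time it ranged from 2.96 to 3.71.

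*SLC9A9*, which encodes NHE9, an exchanger of recycling and late endosomes, spans 583264 bp on the minus strand of chromosome 3 from 143265222 to 143848485, with 16 exons. It was counted 16 and 20 times in control and 84 and 85 times in sgUSP22 libraries. The replicates of each group lay within each other's counting intervals. The groups were apart, with an upper 95% Poisson bound of 30.9 counts in control and a lower bound of 67 counts in sgUSP22 cells. These bounds also treat each count as a separate read and may be too narrow, so the number of reads behind the low control counts is not known. The study measured this gene by RT-qPCR after finding it in these libraries, so its rise here is no independent evidence. Its log2 fold change had a 95% interval of 1.32 to 2.97 around 2.15 (SE 0.37, edgeR adjusted p = 0.000785), a 4.43-fold rise, and ranged from 2.01 to 2.30 with 1 library left out at a time. Its antisense gene *SLC9A9-AS1* was listed at 0 in all 4 libraries.

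*SLC9A3* encodes NHE3, the exchanger that takes up sodium in intestine and kidney, and lies on the minus strand of chromosome 5 from 470456 to 524449, with 17 exons. It was counted 1391 and 1379 times in control and 997 and 1071 times in sgUSP22 libraries. Both sgUSP22 values were lower than both control values, by more than the spread within either group. Its level fell from 22.5 ± 0.501 (SD, n = 2) CPM in control to 15.9 ± 1.003 (SD, n = 2) CPM in sgUSP22 cells. The log2 fold change was -0.50 (SE 0.086, 95% interval -0.69 to -0.31, edgeR adjusted p = 0.000803). This 1.41-fold decrease stayed under the 1.5-fold threshold in each fit.

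The deposited counts do not state a strand setting, and *SLC9A3* shares exonic bases with other annotated genes. Its exons overlap 830 bp of *SLC9A3-AS1* and 839 bp of *EXOC3* on the opposite strand, and 2363 bp of the noncoding gene *PP7080* on the same strand. *SLC9A3-AS1* was counted 688 and 667 times in control and 399 and 512 times in sgUSP22 libraries. It was called lower, with a log2 fold change of -0.65 (SE 0.14, edgeR adjusted p = 0.00311), but fell short of the fold change threshold without sgUSP22 replicate 1, at -0.48, and with trends on GC content and length removed, at -0.40. *EXOC3* had a log2 fold change of -0.23 and *PP7080* of 0.20, so the overlapping genes did not move in 1 direction. How reads in the shared bases were divided was not tested, and the antisense gene and *SLC9A3* cannot be told apart there without strand.

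The sequences around the annotated start sites of these members are shown because *SLC9A2* and *SLC9A9* rose together while *SLC9A3* fell. Each window holds 250 bases before and 50 bases after the start in RefSeq (GRCh38.p14), printed 5′ to 3′ on the strand of the gene, and the start used in these cells was not measured. Capitals mark each match of the GC box GGGCGG on either strand, and matches may overlap each other. The windows lie at chr2:102619303-102619602 for *SLC9A2* (plus strand), chr3:143848419-143848718 for *SLC9A9* (minus strand) and chr5:524400-524699 for *SLC9A3* (minus strand).
SLC9A2: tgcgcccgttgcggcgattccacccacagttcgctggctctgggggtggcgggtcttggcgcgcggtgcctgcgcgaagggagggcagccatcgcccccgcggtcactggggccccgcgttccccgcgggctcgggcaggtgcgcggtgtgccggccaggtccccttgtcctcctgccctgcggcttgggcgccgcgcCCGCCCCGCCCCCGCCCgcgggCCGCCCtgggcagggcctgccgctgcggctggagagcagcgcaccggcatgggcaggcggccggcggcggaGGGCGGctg
SLC9A9: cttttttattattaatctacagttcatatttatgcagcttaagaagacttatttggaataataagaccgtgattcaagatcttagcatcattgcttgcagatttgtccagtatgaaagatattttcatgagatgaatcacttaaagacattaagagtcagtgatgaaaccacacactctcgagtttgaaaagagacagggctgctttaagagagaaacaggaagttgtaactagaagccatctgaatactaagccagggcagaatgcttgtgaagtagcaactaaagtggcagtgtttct
SLC9A3: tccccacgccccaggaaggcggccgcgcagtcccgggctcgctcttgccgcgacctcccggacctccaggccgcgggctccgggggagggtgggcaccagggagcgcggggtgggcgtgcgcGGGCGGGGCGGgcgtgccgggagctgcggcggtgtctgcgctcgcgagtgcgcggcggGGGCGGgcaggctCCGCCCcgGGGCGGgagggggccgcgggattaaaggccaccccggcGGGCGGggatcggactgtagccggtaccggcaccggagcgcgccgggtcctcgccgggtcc

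The 2 members called higher differed in their start regions. The *SLC9A2* window was 80% G and C with 41 CpG dinucleotides and held 5 GC boxes, and 97.4% of all 35114 RefSeq windows had a lower GC content. The *SLC9A9* window was 36% G and C with 2 CpG dinucleotides and no GC box, and 5.34% of windows had a lower GC content. *SLC9A3*, which fell, resembled *SLC9A2*, with 81.3% G and C, 47 CpG dinucleotides and 6 GC boxes. A GC box was found in 45% of all windows. The CCAAT box, the TATA box TATAAA, the E-box CACGTG and the cAMP response element half-site TGACG, searched on either strand, were absent from all 3 windows, while 34.6%, 11.5%, 7.26% and 24.6% of all windows held them. Over the 8 members, 9 windows were matched, and GC boxes were also found at *SLC9A5*, *SLC9A7*, *SLC9A8* and *SLC9B1*. Neither base composition nor these letters was shared by the members that rose and missing from the others.

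Genes near the members that changed had medians close to 0 or, near *SLC9A3*, of the opposite sign. Among the 5 tested genes within 1000000 bp of *SLC9A2*, the median log2 fold change was 0.08 and the highest 0.86, with 1 gene called higher. Near *SLC9A9*, 8 tested genes had a median of 0.07, with 1 called higher and 2 called lower. Around *SLC9A3*, 19 tested genes, its overlapping genes included, had a median of 0.20, with 2 called higher and 3 called lower. Over all tested genes 8.88% were called higher and 7.25% lower, and with so few neighbours nothing is read from these counts.

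**Figure D2:**
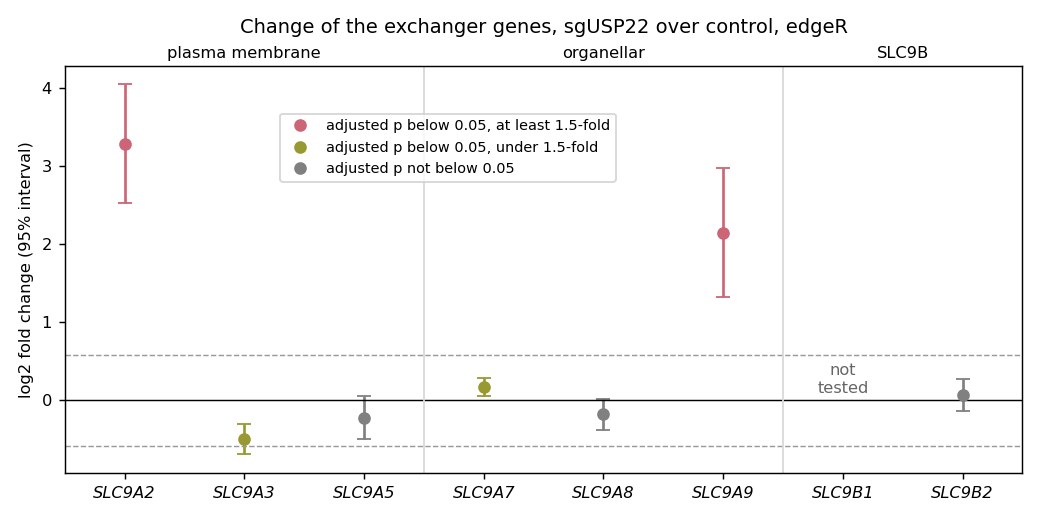
Log2 fold change of each tested exchanger gene, sgUSP22 over control, with 95% intervals from edgeR and dashed lines at a 1.5-fold change in each direction. *SLC9A2* at 3.28 and *SLC9A9* at 2.15 lay above the upper line with their whole intervals, *SLC9A3* at -0.50 and *SLC9A7* at 0.17 had intervals clear of 0, and *SLC9B1* was not tested.

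*SLC9A7*, which encodes NHE7 of the trans-Golgi network, lies on the minus strand of chromosome X from 46599251 to 46759118 and was the most abundant member. It was counted 3837 and 4057 times in control and 4548 and 4820 times in sgUSP22 libraries. The groups did not overlap, but the higher control library and the lower sgUSP22 library, with 65.02 and 69.2 CPM, were close. Its log2 fold change was 0.17 (SE 0.051, edgeR adjusted p = 0.0191), a 12.4% rise. This small rise did not hold under all settings, since removing trends on GC content and transcript length gave -0.02 (adjusted p = 0.73), and the adjusted p was no longer below 0.05 in 4 of 11 alternatives.

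*SLC9A8*, which encodes NHE8 of the Golgi apparatus, lies on the plus strand of chromosome 20 from 49812713 to 49892242. It was counted 943 and 994 times in control and 885 and 918 times in sgUSP22 libraries. After scaling, the sgUSP22 values of 13.5 and 14.2 CPM lay below the control values of 15.5 and 15.9 CPM. The log2 fold change of -0.18 did not pass the test (95% interval -0.38 to 0.02, edgeR adjusted p = 0.119), and the interval covers 0 as well as decreases.

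*SLC9A5* encodes NHE5, known best from brain, and lies on the plus strand of chromosome 16 from 67237683 to 67272191. It was counted 551 and 508 times in control and 513 and 447 times in sgUSP22 libraries, and the groups were close, the lower control library at 8.14 and the higher sgUSP22 library at 7.81 CPM. Its log2 fold change of -0.22 did not pass the test (95% interval -0.50 to 0.06, edgeR adjusted p = 0.165). Its exons share 571 bp with *FHOD1* on the opposite strand, which had a log2 fold change of -0.24.

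*SLC9B1* and *SLC9B2* lie next to each other on the minus strand of chromosome 4, from 102885048 to 103019719 and from 103019868 to 103085829, and differed widely in level. Exons of *SLC9B1* share 206 bp with *CISD2* on the opposite strand, which had a log2 fold change of 0.16. Those of *SLC9B2* share 397 bp with *BDH2* on the same strand, which had a log2 fold change of 0.02. How reads in these shared bases were divided was not tested. *SLC9B2*, which encodes the widely expressed exchanger NHA2, was counted 1701 and 1467 times in control and 1748 and 1761 times in sgUSP22 libraries. Its groups overlapped, control replicate 1 being the highest library by CPM and control replicate 2 the lowest. The log2 fold change was 0.07 (95% interval -0.13 to 0.27, edgeR adjusted p = 0.561). *SLC9B1*, which encodes NHA1, known from sperm, was counted 10 and 7 times in control and 4 and 0 times in sgUSP22 libraries. It was left out of the test as too rare. The ratio of its summed counts, sgUSP22 over control, was 0.223, with a 95% counting interval of 0.0546 to 0.683. This interval treats each count as a separate read. StringTie derives counts from read coverage, so the interval may be too narrow, and no decrease is read from it. If each count were a separate read, the 0 would be compatible with up to 3 counts (0.0465 CPM in that library). It would be compatible with more if a read adds several counts. With no filter on low counts the edgeR adjusted p was 0.352.

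Summed per length, the members of each group gave a description with no test. The plasma membrane members had 6.58 and 6.23 CPM per kb in control and 5.22 and 5.32 CPM per kb in sgUSP22 libraries, the mean of *SLC9A3* being lower by more than that of *SLC9A2* was higher. The share of *SLC9A2* in this sum went from 0.49% and 0.873% in control to 7.39% and 8.74% in sgUSP22 libraries. The organellar members had 8.90 and 9.20 CPM per kb in control and 9.49 and 10.2 CPM per kb in sgUSP22 libraries. *SLC9A9* made up 0.827% and 0.977% of that sum in control and 3.78% and 3.63% in sgUSP22 libraries, and *SLC9A7* over 70% in each library. Over all 8 members the sums overlapped between the groups, with 19.95 and 19.2 CPM per kb in control and 18.9 and 19.8 CPM per kb in sgUSP22 libraries.

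**Figure D3:**
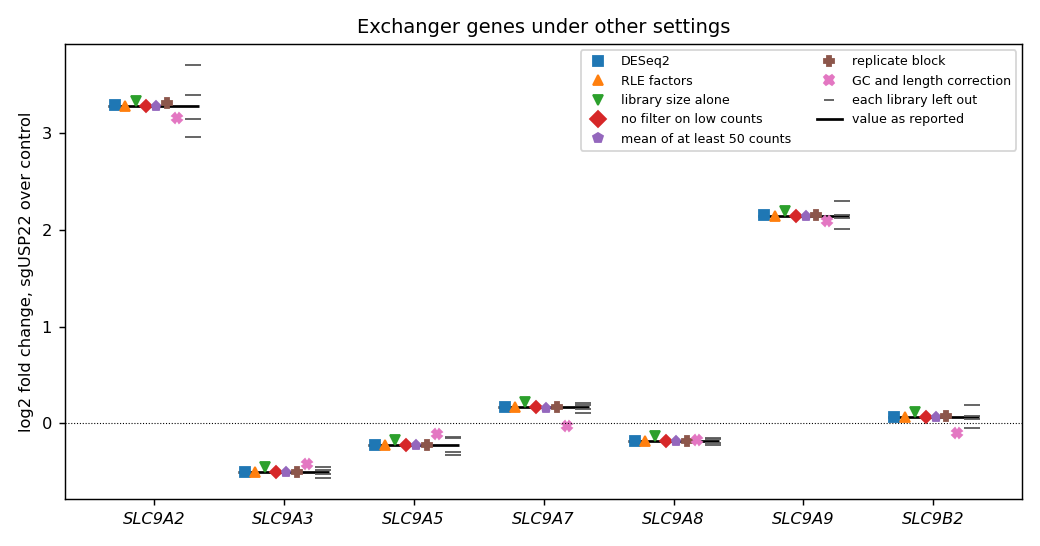
Log2 fold change of the 7 tested exchanger genes, sgUSP22 over control, under each alternative setting (symbols), with each library left out in turn (grey dashes), and as reported (black lines). *SLC9A2* and *SLC9A9* stayed at or above 2.01, *SLC9A3* stayed between -0.57 and -0.42, and the values of *SLC9A7* and *SLC9B2* crossed 0.

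The tested genes whose pattern lay closest to that of each called member were found by the Euclidean distance between mean-centred log2 CPM values over the 4 libraries. For *SLC9A2* these included the cancer-testis antigen gene *MAGEA12* at a distance of 0.29 and the noncoding *FZD10-AS1* at 0.32. For *SLC9A9* they were the growth factor gene *PDGFC* at 0.056, the chemokine gene *CXCL11* at 0.084 and *C2CD4C* at 0.11. With 4 libraries in 2 groups, such a likeness mainly describes a similar fold change.

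Other genes of pH regulation were taken from 7 lists with 98 genes, of which 68 were tested. By the call rule 3 of them were higher and 4 lower, and by adjusted p alone 17 were higher and 18 lower. These are 4.41% and 5.88% of the tested list genes by the call rule, against 8.88% and 7.25% of all tested genes, and 25% and 26.5% by adjusted p, against 26.8% and 25.8%, so the lists as a whole lay near or below the background. The median log2 fold change of the 68 was -0.01. Of the 14 tested proteins that bind or regulate exchangers, 4 were higher and 5 lower by adjusted p (28.6% and 35.7%, against the same 26.8% and 25.8% of all tested genes), and 1 was called lower. This was *TESC*, a calcineurin B homologous protein that binds plasma membrane exchangers, which was counted 342 and 375 times in control and 116 and 128 times in sgUSP22 libraries, a log2 fold change of -1.63 (SE 0.17, edgeR adjusted p = 2.81e-05). The genes of 3 PDZ scaffolds of NHE3 were looked up after the values were seen, and none was called. *SLC9A3R2* had a log2 fold change of -0.51 (edgeR adjusted p = 3.73e-05), *SLC9A3R1* of 0.13 (edgeR adjusted p = 0.0359) and the rare *PDZK1* of 0.85 (SE 0.63, edgeR adjusted p = 0.29). Without sgUSP22 replicate 1 *SLC9A3R2* was at -0.59, past the fold change threshold. *SLC9A3R1* did not pass with DESeq2 (adjusted p = 0.098) or with edgeR and the replicate block (adjusted p = 0.0573). Its log2 fold change ranged from 0.10 to 0.15 with single libraries left out. *SGK1*, a kinase that activates NHE3 and was also looked up after its values were seen, was counted 14890 and 14949 times in control and 23475 and 23517 times in sgUSP22 libraries. Its log2 fold change of 0.58 (edgeR adjusted p = 8.73e-07) lay just under the fold change threshold. It was past the threshold without control replicate 1, at 0.59, and with library size alone, at 0.63.

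Of the 21 tested genes of the V-type proton ATPase, 5 were higher and 8 lower by adjusted p (23.8% and 38.1%, against 26.8% and 25.8% of all tested genes), with a median log2 fold change of -0.19, and 1 was called higher. That gene, *ATP6V1G2*, named after its values were seen, was rare, with 34 and 36 counts in control and 67 and 80 counts in sgUSP22 libraries (log2 fold change 0.99, edgeR adjusted p = 0.0328). Its call was lost in 6 of 11 alternatives, with DESeq2, with the replicate block and with any single library left out, and the adjusted p ranged from 0.0236 to 0.167. It also lies within the same region as an annotated readthrough gene, and how reads were divided between them was not tested. All 6 genes of endosomal and lysosomal chloride transport were tested and 4 were higher by adjusted p (66.7%, against 26.8% of all tested genes). Among these, *CLCN6*, a chloride/proton exchanger of late endosomes, was called higher, at 36.8 ± 0.767 (SD, n = 2) CPM in control and 59.8 ± 2.60 (SD, n = 2) CPM in sgUSP22 cells, with a log2 fold change of 0.70 (edgeR adjusted p = 4.94e-06). No gene of this list was lower by adjusted p, against 25.8% of all tested genes, and the median was 0.28. With 6 genes nothing is read from these shares.

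Among 5 tested genes of monocarboxylate transport, which carries lactate together with protons, *SLC16A7* was called higher (20%, against 8.88% of all tested genes). It was counted 2385 and 2647 times in control and 4779 and 4512 times in sgUSP22 libraries, a log2 fold change of 0.81 (edgeR adjusted p = 2.24e-06). With trends on GC content and length removed it was 0.38, under the threshold. Of 10 tested bicarbonate transporter genes 1 was called lower, *SLC4A8* (10%, against 7.25% of all tested genes). Of 6 tested carbonic anhydrases 2 were called lower, *CA9* and *CA13* (33.3%, against the same 7.25%). These 3 genes were named after their values were seen and had at most 188 counts in any library, with log2 fold changes of -2.40, -1.53 and -1.07. No gene of the 6 tested subunits and regulators of the sodium/potassium ATPase, which maintains the sodium gradient the exchangers use, was called. By adjusted p 1 was higher and 1 lower (16.7% each, against 26.8% and 25.8% of all tested genes). With so few tested genes in each of these lists, nothing is read from these shares.

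**Figure D4:**
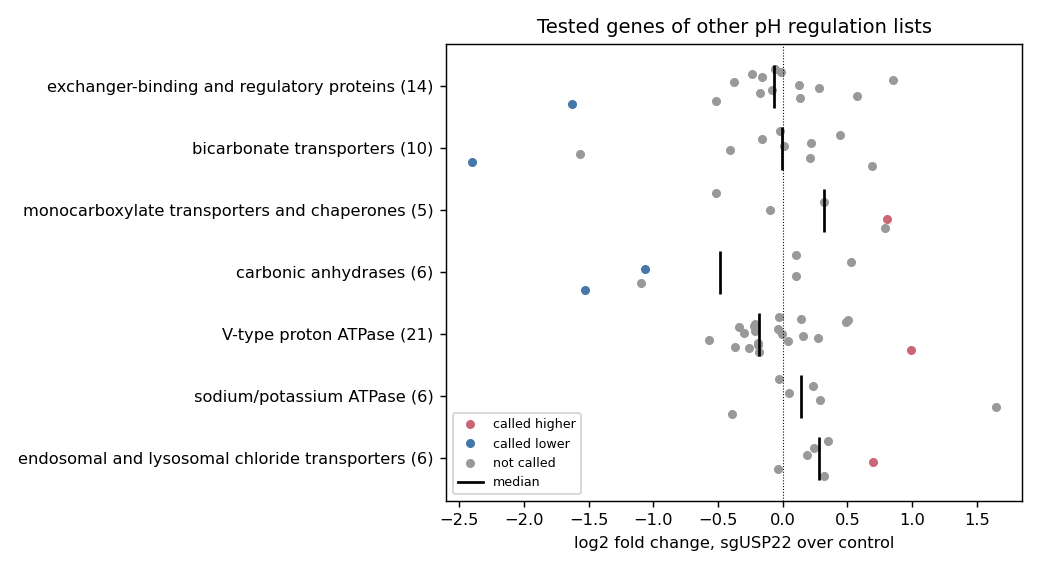
Log2 fold change, sgUSP22 over control, of each tested gene in 7 lists of pH regulation, with the number tested in brackets, the median as a black bar, and called genes in colour. The 3 genes called higher and 4 called lower are spread over 6 of the lists, and the medians lie between -0.48 for the carbonic anhydrases and 0.32 for the monocarboxylate transporters.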

How the data were processed

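The authors aligned RNA-seq reads to hg38 with HISAT2 2.2.1 and derived gene counts with StringTie 2.2.1, and deposited whole-number counts of 28278 genes in 4 libraries, not divided by library size. StringTie computes counts from read coverage. The annotation and strand setting are not given in the sources used here. Columns were matched to samples by name.

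Groups were compared by the quasi-likelihood test of edgeR 4.0.16 in R 4.3.3, with TMM factors and filterByExpr at a count minimum of 10, and p-values were adjusted over all 15150 tested genes by the Benjamini-Hochberg method. The standard error (SE) was obtained from the log2 fold change and its F statistic, and 95% intervals use the moderated degrees of freedom. CPM values use TMM-scaled library sizes. Of the symbols, 25763 were matched to GENCODE v44 (hg38), which gave positions and canonical transcript lengths, and start-site windows came from RefSeq. DESeq2 1.42.0 served as an alternative, beside RLE factors, library size alone, other filters, no fold change threshold, the replicate number as a block, a lowess correction for GC content and length (span 0.3), and leaving out each library. The fits were tested on simulated counts.

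The members and lists were chosen with earlier results of these data known. Named beside the members are *USP22*, overlapping genes, up to 3 called genes per list with an average of 1 log2 CPM or more whose groups were apart, and the 3 genes nearest in pattern to each called member, of which 1 is not reported here. Other list genes and cell type markers were named after their values were seen. Total counts per library, from 62030307 to 64728272, limit precision for genes with few counts.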

Additional observations from a re-analysis of the deposited data

How the results depend on the processing

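Of 77 comparisons of a member with another setting, 74 kept the direction and the side of the call rule. The other 3 were reversed. *SLC9A7* went from 0.17 to -0.021 and *SLC9B2* from 0.07 to -0.098 once trends on GC content and length were removed, and leaving out single libraries gave *SLC9B2* values from -0.051, without control replicate 2, to 0.20. The cause was not tested. The adjusted p of *SLC9A7* was also above 0.05 with no filter on low counts (0.0512), without control replicate 1 (0.0856) and without sgUSP22 replicate 2 (0.186). When 1 library is left out, the lone library of its group is assumed to vary like the other group. *SLC9A2*, *SLC9A9* and *SLC9A3* passed the adjusted p in all 11 alternatives, *SLC9A2* and *SLC9A9* from 2.96 to 3.71 and from 2.01 to 2.30.

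Without the fold change threshold, by its construction, 4057 genes were higher and 3904 lower, against 1345 and 1098, and 1 member (*SLC9A3*) was lower, against 0. In the pH regulation lists 17 genes were then higher and 18 lower. The 3 list genes called higher ranged from 2 to 6 when single libraries were left out, the 6 being without control replicate 1, and the cause was not tested. Library size alone moved the median of all tested genes to 0.05.

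The replicate numbers share no stated batch, and same-numbered libraries deviated from their group means with a correlation of 0.042 (across genes), so they do not pair the libraries. The replicate block gave 1341 genes higher and 1100 lower and called the same 2 members. At 3 counts or fewer no size is measured, which limits *SLC9B1*.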
